A study of Mus musculus with 11 samples.

Results

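The IL-2 receptor, its kinase Jak3, the STAT5 transcription factors and 4 inhibitors of the SOCS family were followed across the Treg cells of the study. The members were taken by gene symbol, and were Il2ra, Il2rb, Il2rg, Jak3, Stat5a, Stat5b, Cish, Socs1, Socs2 and Socs3, 10 of the 52997 genes in the count table. All 10 passed the filter on low counts, with 12932 genes tested in all. The samples were labelled 15 wk of age, and the methods describe both donor and host mice as younger at the transfer. The cells were clonotype+ CD45.2+ Treg cells from male mice of the C57BL/6 strain with the vTreg53 TCR transgene and a Foxp3-GFP knock-in allele. They had been transferred into CD45.1+ B6 hosts. Every group therefore shared 1 transgenic TCR, that of a single Treg clone from visceral adipose tissue (VAT), and the hosts kept their own Treg cells, which the sort on CD45.2 left out. At 6 weeks after the transfer, hosts received complete Freund's adjuvant s.c., and 1 week later incomplete Freund's adjuvant i.p., either alone or with Fat1562, the surrogate peptide that served as antigen for the vTreg53 TCR. The labels name the controls PBS and unimmunized, where the study's methods describe adjuvant alone, and the latter term is used here. Cells were sorted a week after the boost, from pooled spleen and lymph nodes (Spl/LN) or from VAT. There were 3 libraries from Spl/LN with adjuvant alone, 3 from Spl/LN after Fat1562, 2 from VAT with adjuvant alone and 3 from VAT after Fat1562, each made from 1000 double-sorted cells.

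Treg cells make little or no IL-2 and take it up from their surroundings. The α chain CD25, encoded by Il2ra, raises the affinity of the receptor, while the β chain (Il2rb) and the common γ chain (Il2rg) carry the signal. Jak1 and Jak3 bound to these chains phosphorylate Stat5a and Stat5b, which enter the nucleus and act on target genes. Il2ra and Cish are textbook STAT5 targets, and CISH and the SOCS proteins dampen the cytokine signal that induced them. IL-2 and STAT5 maintain Foxp3 expression and Treg survival.

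Because a STAT5 dimer is known to bind the palindrome TTCNNNGAA, the start regions of the members were searched for it. A window of 300 bases around the start, 250 before and 50 after, was available from RefSeq (GRCm38.p6) for 8 of the 10 genes, and not for Il2rb and Socs2. The sequence is its own reverse complement, so a single search covered both strands, and the matches did not overlap each other. The 8 genes had 10 windows, as Stat5a and Stat5b had 2 each. Of the 10 windows 2 held it, those of Cish and Socs3, against 8.3% of all 32851 windows. Of 18 further genes known as STAT5 targets in T cells, 13 had a window. Counted by gene and not by window, 4 of these held it in any window (Bcl6, Foxp3, Gzmb and Lta). The share of all genes with a match in any window was not counted, so this count has no background beside it. The stretches of Cish and Socs3 that hold the palindrome are shown, with the fixed letters of each match in capitals. Both genes encode inhibitors whose levels changed in the comparisons below.
Cish, chr9:107296654-107296683, plus strand: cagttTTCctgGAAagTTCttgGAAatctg
Socs3, chr11:117969502-117969531, minus strand: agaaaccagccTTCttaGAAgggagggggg
Cish held 2 matches, beginning at bases 1 and 12 of the RefSeq transcript, and 0.457% of all windows held at least 2. These lay in an exon and untranslated region of Cish in GENCODE vM21, whose gene starts further upstream. In Socs3 the match began 154 bases before the RefSeq start and fell within an intron of the longer GENCODE gene. No binding was measured, and the letters alone do not say that STAT5 binds there.

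Total counts ran from 4490242 to 6570057 per library, and mitochondrial genes took 0.775% to 1.18% of them. Foxp3, the defining Treg factor, had 6777 to 9995 counts in every library, and Cd4 had 2185 to 4394. Summed over 5 Treg markers, levels scaled to the library total were 4327 to 4782 CPM in Spl/LN and 5064 to 5492 CPM in VAT. B cell and plasma cell markers, 6 genes in all, summed to 164 and 2180 CPM in VAT with adjuvant alone, 64.1 to 488 CPM in Spl/LN with adjuvant alone and 47.5 to 81.8 CPM in the libraries after Fat1562. Of these, the immunoglobulin gene Igkc had 8274 counts and the plasma cell gene Jchain 1388 in VAT adjuvant alone replicate 2. In VAT adjuvant alone replicate 1 they had 721 and 58. The B cell gene Ms4a1, which encodes CD20, had 6 or fewer counts in every library. Endothelial markers summed to 42.3 and 51.2 CPM in VAT with adjuvant alone against 75.9 to 110 CPM elsewhere. Nearly all of it was Pecam1, which leukocytes also express, and the defining gene Cdh5 had at most 4 counts. Dendritic cell markers summed to 9.23 to 14.2 CPM in VAT and 1.92 to 5.83 CPM in Spl/LN, nearly all from Xcr1. The part of these transcripts in the results below was not tested. Of the 12 member calls in the 3 comparisons that use VAT with adjuvant alone, 9 held without replicate 2 of that group, and those lost are named below.

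With adjuvant alone, Treg cells of VAT held more Il2ra, Il2rg, Cish and Socs2 mRNA than those of Spl/LN, and less Stat5b. These were 4 higher and 1 lower of the 10 members, where 9.09% of the genes tested were higher and 7.17% lower. After Fat1562, 6 members were higher in VAT and 0 lower (8.26% and 6.73% of genes tested). Fat1562 itself was accompanied by 1 higher and 3 lower members in VAT (4.32% and 3.97%), and in Spl/LN by 1 member of each direction (2.58% and 1.40%). The median log2 fold change of the members was 0.20 and 0.31 in the VAT against Spl/LN comparisons, and -0.24 in both Fat1562 comparisons, beside medians between -0.03 and 0.01 over all genes tested. Calls rest on edgeR's quasi-likelihood test with p-values adjusted over all genes tested, at an adjusted p under 0.05. Each comparison shares a group with others, so the counts are not independent. Since the libraries hold RNA of many cells, fewer cells with a transcript and less of it per cell cannot be told apart.

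**Figure D1:**
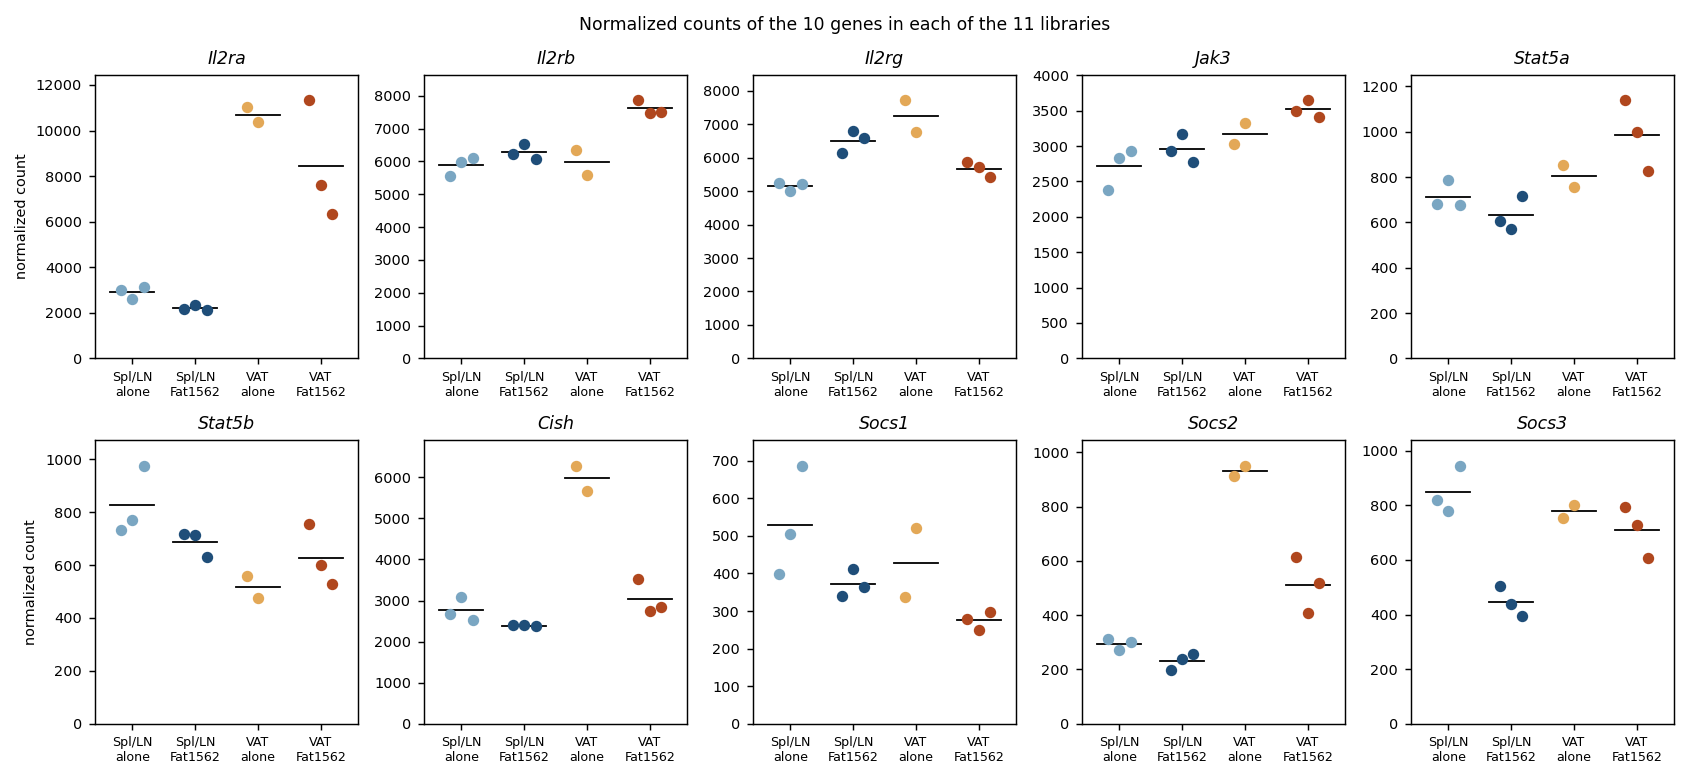
Normalized counts (vertical axes, linear from 0) of the 10 genes in each library, with a point per library and a bar at the group mean. Il2ra was at least 6340 in all 5 VAT libraries and at most 3124 in all 6 Spl/LN libraries, while Cish and Socs2 were highest in the 2 VAT libraries with adjuvant alone.

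Il2ra, on chromosome 2 (11642807 to 11693193, plus strand, GRCm38), encodes the high-affinity α chain. Its normalized counts, which are counts scaled to the mean library size, were 3009, 2601 and 3124 in Spl/LN with adjuvant alone and 2180, 2360 and 2140 in Spl/LN after Fat1562. The VAT libraries had 11019 and 10367 with adjuvant alone, and 11325, 7615 and 6340 after Fat1562. Every VAT library was thus above every Spl/LN library, and the spread was widest in VAT after Fat1562. The level in VAT was 3.67-fold that of Spl/LN with adjuvant alone (log2 1.88, SE 0.16, edgeR adjusted p = 1.753e-07) and 3.79-fold after Fat1562 (log2 1.92, SE 0.15, edgeR adjusted p = 9.304e-08). Without VAT adjuvant alone replicate 2 the first of these log2 values was 1.92 (edgeR adjusted p = 2.54e-06).

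Fat1562 did not move Il2ra past the threshold in either tissue. In VAT the log2 difference was -0.34 (95% interval -0.68 to -0.01, edgeR adjusted p = 0.2264), and in Spl/LN it was -0.39 (-0.70 to -0.08, edgeR adjusted p = 0.1573). The VAT value turned on 1 library: without VAT Fat1562 replicate 1, whose level was above both with adjuvant alone, it was -0.62 with an edgeR adjusted p of 0.001934. Without VAT adjuvant alone replicate 2 it was -0.39 (edgeR adjusted p = 0.3735). In Spl/LN, all 3 libraries after Fat1562 were below all 3 with adjuvant alone, and the value passed with no filter on low counts (edgeR adjusted p = 0.0007156) with the 2 Spl/LN groups alone in the fit (0.02788) and without VAT Fat1562 replicate 1 (0.02114). With no filter the VAT value passed too (edgeR adjusted p = 0.009504). However, edgeR's prior degrees of freedom then became infinite, so p-values with no filter did not rest on the gene's own spread.

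Il2rb on chromosome 15 (78479256 to 78495271, minus strand) encodes the signalling β chain, shared with the IL-15 receptor. As for Jak3, its highest group mean was 1.30 times the lowest, the narrowest range of the 10 genes. Mean normalized counts were 5880 ± 291 (SD, n = 3) in Spl/LN with adjuvant alone, 6283 ± 233 (n = 3) in Spl/LN after Fat1562, 5972 ± 539 (n = 2) in VAT with adjuvant alone and 7612 ± 215 (n = 3) in VAT after Fat1562. All 3 libraries of the last group, at 7860, 7467 and 7510, were above the other 8. It rose in VAT after Fat1562 (log2 0.35, SE 0.08, edgeR adjusted p = 0.01135) and was then higher than in Spl/LN (log2 0.28, SE 0.07, edgeR adjusted p = 0.01366). With adjuvant alone the tissues differed by 0.02 on the log2 scale (95% interval -0.15 to 0.19, edgeR adjusted p = 0.8948), a direction that turned under quantile normalization (-0.32, limma adjusted p = 0.005375). Both calls of Il2rb depended on single libraries. The first was lost without VAT adjuvant alone replicate 2 (log2 0.26, edgeR adjusted p = 0.1866), and the second under quantile normalization (limma adjusted p = 0.3957) and without Spl/LN Fat1562 replicate 3 (0.06304) or VAT Fat1562 replicate 1 (0.05615).

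Il2rg on chromosome X (101264378 to 101268255, minus strand) encodes the common γ chain of the receptors for IL-2, IL-4, IL-7, IL-9, IL-15 and IL-21. Fat1562 was accompanied by opposite changes in the 2 tissues. In Spl/LN its normalized counts were 5244, 4993 and 5226 with adjuvant alone and 6132, 6788 and 6591 after Fat1562, a rise of 0.33 on the log2 scale (SE 0.07, edgeR adjusted p = 0.01469). The VAT libraries went from 7714 and 6753 with adjuvant alone to 5869, 5723 and 5433 after Fat1562, and Il2rg fell by 0.35 (SE 0.08, edgeR adjusted p = 0.01139). The groups did not overlap in either tissue.

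The difference between the 2 responses of Il2rg was itself called, at -0.68 on the log2 scale (SE 0.11, edgeR adjusted p = 0.0016), and remained between -0.78 and -0.58 with each of the 11 libraries left out in turn. The single responses were less stable. The fall in VAT was lost without VAT adjuvant alone replicate 1 (log2 -0.25, edgeR adjusted p = 0.1786) but not without replicate 2 (-0.45, 0.01287). The rise in Spl/LN was lost under quantile normalization (limma adjusted p = 0.1026) and without Spl/LN adjuvant alone replicate 2 or Spl/LN Fat1562 replicate 2 or 3 (edgeR adjusted p from 0.05423 to 0.09249). With adjuvant alone Il2rg was higher in VAT than in Spl/LN (log2 0.49, SE 0.08, edgeR adjusted p = 0.0003646, and 0.58 without VAT adjuvant alone replicate 2), a call lost under quantile normalization (limma adjusted p = 0.09989). After Fat1562 the difference was -0.20 (SE 0.07, edgeR adjusted p = 0.08374), and -0.35 under quantile normalization (limma adjusted p = 0.001319). The exons of Il2rg share 728 of 2387 bases with Gm20489 on the same strand, which had 0 counts in every library, and how such reads were assigned is not given in the sources used here.

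The balance of the chains shifted with the tissue. Within a library, the ratio of Il2ra to Il2rb counts was 0.435 to 0.542 in Spl/LN with adjuvant alone, 0.350 to 0.361 in Spl/LN after Fat1562, 1.73 and 1.85 in VAT with adjuvant alone and 0.844 to 1.44 in VAT after Fat1562. The 4 ranges did not overlap. The ratio of Il2ra to Il2rg was 0.325 to 0.598 in Spl/LN and 1.17 to 1.93 in VAT. Per kilobase of exon, Il2rg had the highest level of the 10 genes in all 4 groups, at 2159 to 3030 normalized counts per kilobase. On the same per-kilobase scale, the Il2ra level was under that of Il2rb in Spl/LN with adjuvant alone (510 and 1371) and above it in VAT with adjuvant alone (1872 and 1393), and these orders also held per kilobase of the longest coding transcript. After Fat1562 the order of Il2ra and Il2rb in VAT depended on the length used.

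**Figure D2:**
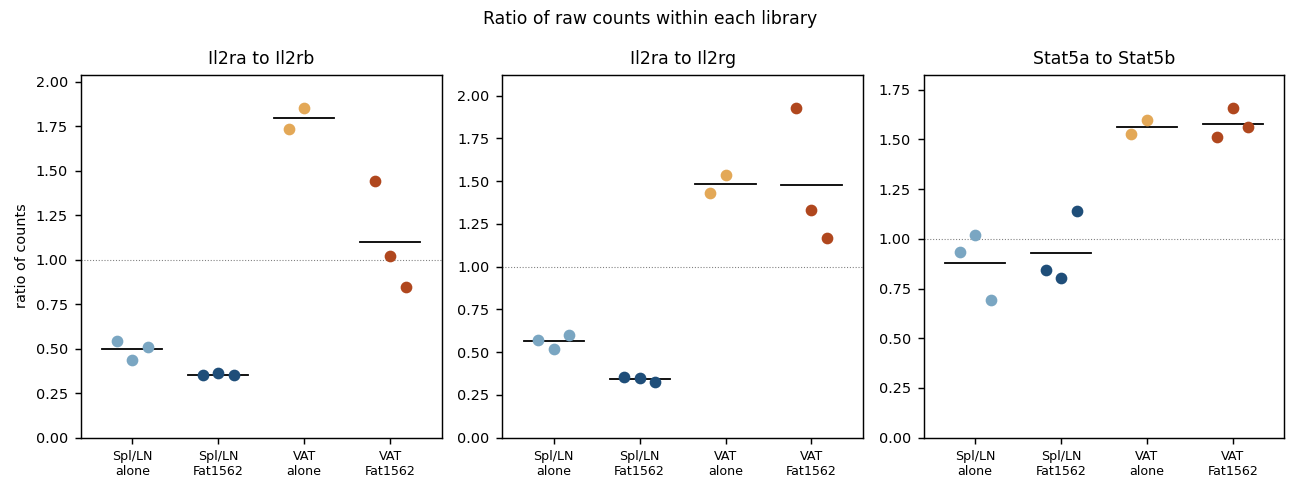
Ratios of raw counts within each library (vertical axes from 0, dotted line at 1), with a point per library and a bar at the group mean. The Il2ra to Il2rb ratio was 1.73 and 1.85 in VAT with adjuvant alone and at most 0.542 in Spl/LN, and Stat5a to Stat5b was at least 1.51 in all VAT libraries and at most 1.14 in Spl/LN.

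Jak3 on chromosome 8 (71676296 to 71690575, plus strand) encodes the kinase that binds the common γ chain, and no comparison called it. Mean normalized counts were 2714 ± 290 (SD, n = 3) and 2958 ± 200 (n = 3) in Spl/LN with adjuvant alone and after Fat1562, and 3174 ± 215 (n = 2) and 3518 ± 118 (n = 3) in VAT. After Fat1562 the VAT libraries (3495, 3646 and 3414) lay above the Spl/LN libraries (2930, 3171 and 2774). The log2 difference was 0.25 (95% interval 0.06 to 0.44, edgeR adjusted p = 0.06928), and it passed with the groups compared alone in the fit (0.03832), by DESeq2 (0.04044) and without Spl/LN adjuvant alone replicate 1 (0.04098). With adjuvant alone it was 0.22 (0.01 to 0.43, edgeR adjusted p = 0.1443), with the sign turned under quantile normalization (-0.017). The exons of Jak3 share 404 of 5352 bases with Insl3 on the same strand, which had 33 to 88 counts.

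Stat5a and Stat5b are neighbours on chromosome 11 (100859351 to 100885169, plus strand, and 100780731 to 100850724, minus strand), and they encode near-identical factors. The exons of Stat5a share 72 of 7133 bases with Stat3 on the opposite strand, which had 1787 to 3540 counts. Stat5a had 681, 785 and 676 normalized counts in Spl/LN with adjuvant alone, 607, 571 and 716 in Spl/LN after Fat1562, 852 and 756 in VAT with adjuvant alone, and 1138, 997 and 826 in VAT after Fat1562. After Fat1562 it was higher in VAT than in Spl/LN (log2 0.64, SE 0.13, edgeR adjusted p = 0.002208), with no overlap of libraries. With adjuvant alone the difference was 0.17 (95% interval -0.13 to 0.47, edgeR adjusted p = 0.4801).

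Stat5b went the other way. It had 731, 772 and 976 normalized counts in Spl/LN with adjuvant alone, 719, 712 and 630 in Spl/LN after Fat1562, 558 and 474 in VAT with adjuvant alone, and 753, 600 and 528 in VAT after Fat1562. With adjuvant alone it was lower in VAT (log2 -0.68, SE 0.16, edgeR adjusted p = 0.007295), a call lost without VAT adjuvant alone replicate 2 (-0.57, edgeR adjusted p = 0.1011). After Fat1562 the libraries of the tissues overlapped (log2 -0.13, 95% interval -0.43 to 0.17, edgeR adjusted p = 0.6133). Neither STAT5 gene was called for Fat1562 within a tissue, with log2 differences of 0.29 and 0.28 in VAT (intervals -0.01 to 0.60 and -0.06 to 0.62) and -0.18 and -0.27 in Spl/LN (-0.45 to 0.09 and -0.57 to 0.03).

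As a ratio of counts within a library, Stat5a to Stat5b was 0.693 to 1.14 over the 6 Spl/LN libraries and 1.51 to 1.66 over the 5 VAT libraries, with no overlap. The VAT values differed little between adjuvant alone (1.56 ± 0.05, SD, n = 2) and Fat1562 (1.58 ± 0.08, n = 3). The genes share sequence, with 10.2% of the 38-base stretches of Stat5a also found in Stat5b and 13.5% the other way. Reads of that length from those stretches could not be told apart, while the mate of a pair may resolve them.

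**Figure D3:**
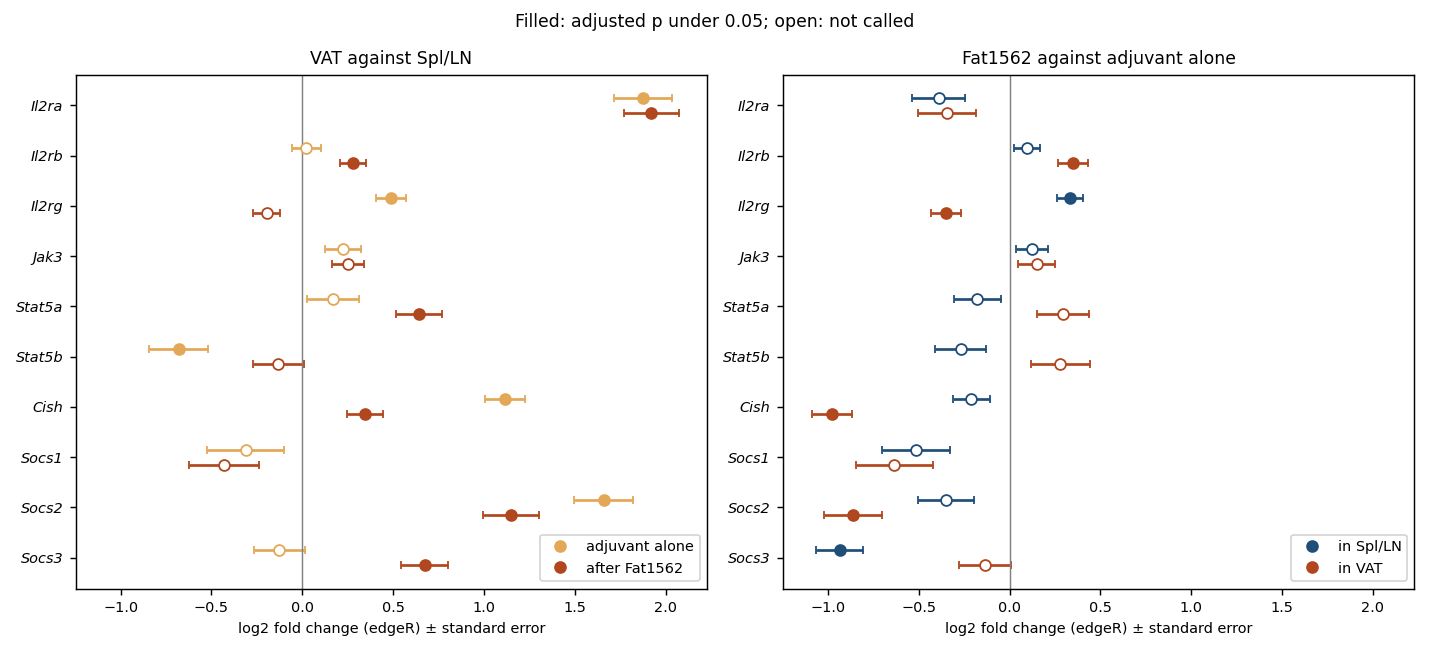
Log2 fold changes of the 10 genes by edgeR (horizontal axes) with bars of 1 standard error, for VAT against Spl/LN (left) and Fat1562 against adjuvant alone (right). Filled points were called at an adjusted p under 0.05. Il2ra and Socs2 stand to the right in both VAT against Spl/LN comparisons, and Cish and Socs2 to the left for Fat1562 in VAT.

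The inhibitors Cish and Socs2 were highest in VAT with adjuvant alone and fell there after Fat1562. Cish on chromosome 9 (107296026 to 107302784, plus strand) encodes an SH2 protein that binds cytokine receptors, and its start region is the one with 2 palindromes shown above. Its normalized counts were 2670, 3083 and 2529 in Spl/LN with adjuvant alone, and 2403, 2392 and 2374 in Spl/LN after Fat1562. Both VAT libraries with adjuvant alone, at 6286 and 5670, exceeded the 3535, 2735 and 2836 after Fat1562. The VAT libraries with adjuvant alone stood above all others, and those after Fat1562 overlapped with Spl/LN adjuvant alone.

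With adjuvant alone Cish was 2.16-fold higher in VAT than in Spl/LN (log2 1.11, SE 0.11, edgeR adjusted p = 1.106e-06), and the log2 value was 1.19 without VAT adjuvant alone replicate 2. It fell by 0.98 on the log2 scale in VAT after Fat1562 (SE 0.11, edgeR adjusted p = 1.874e-05), and the change without VAT adjuvant alone replicate 2 was -1.05 (edgeR adjusted p = 0.0001892). In Spl/LN all libraries after Fat1562 were below all with adjuvant alone, and the difference was -0.21 (95% interval -0.42 to 0.00, edgeR adjusted p = 0.2793). The response in VAT differed from that in Spl/LN by -0.77 (SE 0.15, edgeR adjusted p = 0.007169), which missed the threshold without VAT adjuvant alone replicate 1 (-0.69, edgeR adjusted p = 0.05224) but not without replicate 2 (-0.84, 0.01631). After Fat1562 Cish was still higher in VAT than in Spl/LN, by 0.35 (SE 0.10, edgeR adjusted p = 0.02692), but that call was lost under quantile normalization (limma adjusted p = 0.1135) and without Spl/LN Fat1562 replicate 1, 2 or 3 or VAT Fat1562 replicate 1 (edgeR adjusted p from 0.07094 to 0.1685). Exons of Gm17041 and Gm17040 lie on the opposite strand of Cish, with 0 and at most 16 counts, and whether counting used strand is not given in the sources used here.

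Socs2 on chromosome 10 (95385362 to 95417180, minus strand) is best known as an inhibitor of the growth hormone receptor and is also induced through STAT5. Its normalized counts were 312, 272 and 300 in Spl/LN with adjuvant alone, 197, 238 and 258 in Spl/LN after Fat1562, 913 and 951 in VAT with adjuvant alone, and 615, 407 and 517 in VAT after Fat1562. All VAT libraries were above all Spl/LN libraries. The gene was 3.16-fold higher in VAT with adjuvant alone (log2 1.66, SE 0.16, edgeR adjusted p = 1.022e-06, and 1.63 without VAT adjuvant alone replicate 2) and 2.22-fold higher after Fat1562 (log2 1.15, SE 0.15, edgeR adjusted p = 3.991e-05).

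In VAT, Socs2 fell by 0.86 on the log2 scale after Fat1562 (SE 0.16, edgeR adjusted p = 0.002273), and the change was -0.84 without VAT adjuvant alone replicate 2 (edgeR adjusted p = 0.03038). In Spl/LN the libraries did not overlap either, and the difference was -0.35 (95% interval -0.68 to -0.03, edgeR adjusted p = 0.2293). The responses of the 2 tissues were not called different, at -0.51 (-0.98 to -0.04, edgeR adjusted p = 0.2461).

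Socs3 on chromosome 11 (117966079 to 117970047, minus strand) encodes an inhibitor best known for acting on IL-6 family receptors, and it responded in Spl/LN. There its normalized counts were 819, 781 and 946 with adjuvant alone and 504, 438 and 393 after Fat1562. The VAT libraries had 754 and 802 with adjuvant alone and 794, 727 and 606 after Fat1562, with overlap. Socs3 fell by 0.93 in Spl/LN (SE 0.13, edgeR adjusted p = 0.0003428), to a level 1.91-fold lower, and the change lay between -1.03 and -0.85 with each library left out. In VAT the difference was -0.14 (95% interval -0.43 to 0.16, edgeR adjusted p = 0.6499).

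The difference between the Socs3 responses was 0.80 (SE 0.19, edgeR adjusted p = 0.026), between 0.71 and 0.90 with each library left out. The call was lost without Spl/LN Fat1562 replicate 2 or 3, VAT adjuvant alone replicate 1 or 2, or VAT Fat1562 replicate 1 or 2, with edgeR adjusted p from 0.06472 to 0.1122. After Fat1562 Socs3 was 1.59-fold higher in VAT than in Spl/LN (log2 0.67, SE 0.13, edgeR adjusted p = 0.00149), where with adjuvant alone the log2 difference was -0.13 (95% interval -0.43 to 0.17, edgeR adjusted p = 0.6115).

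Socs1 on chromosome 16 (10782240 to 10785536, minus strand) encodes an inhibitor of the JAK kinases themselves, and no comparison called it. Its normalized counts were 399, 505 and 687 in Spl/LN with adjuvant alone, 339, 411 and 365 in Spl/LN after Fat1562, 337 and 520 in VAT with adjuvant alone, and 278, 251 and 297 in VAT after Fat1562. The libraries with adjuvant alone were the most scattered. In VAT the Fat1562 groups did not overlap and the log2 difference was -0.63 (95% interval -1.08 to -0.19, edgeR adjusted p = 0.07882). It passed with no filter on low counts, with the 2 groups alone, by DESeq2, with the replicate number as a block, and without Spl/LN adjuvant alone replicate 1 or 3 (adjusted p from 0.008695 to 0.04488). Without VAT adjuvant alone replicate 1 it was -0.92, and without replicate 2 of that group -0.30. In Spl/LN it was -0.52 (-0.91 to -0.12, edgeR adjusted p = 0.1391), and it passed with no filter (0.03816) and without Spl/LN adjuvant alone replicate 1 (0.047). As for Il2ra, p-values with no filter did not rest on the gene's own spread.

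Read together by role, of the 4 inhibitors 2 fell with Fat1562 in VAT, where 3.97% of genes tested were lower, 1 fell in Spl/LN, where 1.40% were, and 0 rose in either. The kinase and STAT5 genes had 0 calls in either by edgeR, DESeq2 or limma, and 0 had an unadjusted edgeR p under 0.05. Over the 10 members, the responses to Fat1562 in the 2 tissues differed for 3 genes, with Il2rg and Cish lower in VAT relative to Spl/LN and Socs3 higher, where 2.02% of genes tested were lower and 1.70% higher. Under quantile normalization Il2rb was called as well (0.42, limma adjusted p = 0.02516).

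For the 3 members whose group means spanned more than 1 on the log2 scale, the tested genes with the most similar profile were found by the root mean square difference of mean-centred log2(normalized count + 1) over the 11 libraries. Nearest to Il2ra were Nfkbia (0.21), Ifrd1 (0.24) and Map3k8 (0.25), against a median of 1.03 over all tested genes. Nfkbia encodes the NF-κB inhibitor IκBα, and its normalized counts were 4406 ± 273 (SD, n = 3), 3926 ± 412 (n = 3), 20220 ± 2788 (n = 2) and 11830 ± 2450 (n = 3) in the order Spl/LN adjuvant alone, Spl/LN Fat1562, VAT adjuvant alone and VAT Fat1562. Nearest to Cish were the noncoding RNA Gm28875 (0.12), Gata3 (0.15) and Il10ra (0.17), against a median of 0.61. Gata3, a transcription factor of Th2 and tissue Treg cells, had normalized counts of 2766 ± 216 (n = 3), 2488 ± 150 (n = 3), 6603 ± 408 (n = 2) and 3747 ± 832 (n = 3) in the same order. For Il10ra, a chain of the IL-10 receptor, they were 1308 ± 69.2, 1345 ± 140, 3311 ± 141 and 1439 ± 220. Nearest to Socs2 were the receptor gene P2ry10 (0.20), Mapkbp1 (0.20) and Fgl2 (0.20), against 0.84. Fgl2 encodes a secreted effector of Treg cells, with normalized counts of 1445 ± 62.0, 1235 ± 170, 4709 ± 5.11 and 2743 ± 213. All these values come from the same 11 libraries, and likeness over them is a description.

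Transcripts of the ligands were few. Il2 had 0 to 5 counts and was seen in 5 of 11 libraries, and Il9 had 0 in every one. Of the 7 ligand genes (Il2, Il4, Il7, Il9, Il15, Il21 and Tslp), 0 passed the filter on low counts, and the highest count was 14, for Il7. A count of 0 in a library allows up to 3 counts, by counting error alone.

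A list of 5 further receptor genes held those that pair with the common γ chain or belong to the same family. With adjuvant alone 2 were higher in VAT, where 9.09% of genes tested were. These were Il4ra (log2 0.73, edgeR adjusted p = 0.0002865) and Il7r (log2 0.81, edgeR adjusted p = 0.0005068, and 0.49 without VAT adjuvant alone replicate 2). After Fat1562, 1 was higher, Il7r (log2 0.39, edgeR adjusted p = 0.04331), and 1 lower, Il9r (-0.91, edgeR adjusted p = 0.0001699), beside 8.26% and 6.73% of genes tested. DESeq2 called 3 of the 5 there and limma, after quantile normalization, 1. For Fat1562 in VAT 3 of the 5 were lower and 0 higher (3.97% and 4.32% of genes tested), with 3 called by DESeq2 and 1 by limma after quantile normalization. Il9r fell by 1.22 (edgeR adjusted p = 5.591e-05), from a mean normalized count of 475 to 203, and by more than in Spl/LN (difference -1.05, edgeR adjusted p = 0.006972). Il4ra and Il7r fell by 0.40 and 0.47 (edgeR adjusted p = 0.04483 and 0.04663), calls lost without VAT adjuvant alone replicate 2 (edgeR adjusted p = 0.1827 and 0.6623), where the fall of Il9r was 1.33 (0.000389). In Spl/LN 0 of the 5 were called for Fat1562 by edgeR, DESeq2 or limma, and 1 had an unadjusted edgeR p under 0.05.

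Of 3 partner kinases, 1 was higher in VAT with adjuvant alone and after Fat1562, where 9.09% and 8.26% of genes tested were. This was Jak2 (log2 1.18 and 0.51, edgeR adjusted p = 3.264e-05 and 0.01997). Jak1, which binds the β chain, had mean normalized counts from 3615 to 3804 in the 4 groups. Of 4 other STAT genes, 2 were higher in VAT with adjuvant alone, where 9.09% of genes tested were. These were Stat3 (0.54, edgeR adjusted p = 0.004265) and Stat4 (0.45, 0.03106). After Fat1562, Stat3 was higher (0.73, edgeR adjusted p = 0.0001237) and Stat2 lower (-0.65, 0.008329) in VAT than in Spl/LN. The shares over all genes tested were 8.26% and 6.73%. Stat4 fell by 0.73 in VAT with Fat1562 (edgeR adjusted p = 0.002199), where 3.97% of genes tested were lower. Socs4, Socs5, Socs6 and Socs7, the other SOCS genes, had 0 calls in all 5 comparisons by edgeR, DESeq2 or limma, and 0 unadjusted edgeR p under 0.05, with mean normalized counts between 77.7 and 249. Their log2 differences lay between -0.27 and 0.40.

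Of 11 phosphatases and other inhibitors of JAK and STAT signalling, 1 was higher and 3 lower in VAT with adjuvant alone (9.09% and 7.17% of genes tested). After Fat1562, 1 was higher and 5 lower (8.26% and 6.73%). Dusp4, a phosphatase of MAP kinases, was the one higher in both (log2 2.33 and 2.84, edgeR adjusted p = 9.67e-09 and 8.607e-10). Sh2b3, the adaptor LNK that restrains JAK2, was lower in both (-1.92 and -1.51). Ptpn6 and Ptpn1, which encode the phosphatases SHP-1 and PTP1B, were lower in VAT in both comparisons. They were the 2 genes of the list that rose after Fat1562, in each tissue. Of all genes tested, 4.32% rose in VAT and 2.58% in Spl/LN. Ptpn6 rose by 0.99 on the log2 scale in VAT (edgeR adjusted p = 9.378e-05) and 0.98 in Spl/LN (6.151e-05), and Ptpn1 by 0.61 (0.0005953) and 0.49 (0.002203).

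The largest list held 18 genes known as STAT5 targets of T cells, members aside. With adjuvant alone 9 were higher and 4 lower in VAT, and after Fat1562 8 were higher and 3 lower, where 9.09% and 7.17%, and 8.26% and 6.73%, of genes tested were. DESeq2 called 13 and 12 of the list and limma, after quantile normalization, 12 and 9, with edgeR list medians of 0.40 and 0.29 on the log2 scale. Il10, an effector cytokine of VAT Treg cells, had 9 to 18 counts in Spl/LN with adjuvant alone and 840 and 1138 in VAT, the largest difference of the list (log2 6.45, edgeR adjusted p = 1.003e-09), and after Fat1562 it was higher by 4.08 (edgeR adjusted p = 6.023e-08). Ctla4, an inhibitory receptor of Treg cells, was higher by 1.20 (edgeR adjusted p = 1.078e-07) and, after Fat1562, by 0.87 (2.417e-06). Pim1, a survival kinase, was higher by 1.51 (edgeR adjusted p = 1.071e-06), and Myc by 1.09 with adjuvant alone and 1.90 after Fat1562 (edgeR adjusted p = 5.289e-08). Bcl2l1 (1.12), Ccnd2 (0.75), Cdk6 (0.56) and Gzmb (1.19) were also among the 9 higher with adjuvant alone. The 4 lower with adjuvant alone were the apoptosis inhibitor Bcl2 (-1.57), the lymphotoxin gene Lta (-2.97), Pim2 (-0.93) and Ccnd3 (-0.94). The 3 lower after Fat1562 were Lta (-1.69), Pim2 (-0.83) and Ccnd3 (-1.10). Foxp3, which is in the list too, was higher by 0.40 and 0.31. Without VAT adjuvant alone replicate 2, 12 of the 13 calls with adjuvant alone held, and Pim2 did not (-1.14, edgeR adjusted p = 0.06026).

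For Fat1562 in VAT, 4 of the 18 targets were lower and 0 higher (3.97% and 4.32% of genes tested), with 3 called by DESeq2 and 4 by limma after quantile normalization. The 4 by edgeR were Ccnd2, a D-type cyclin (-0.61, edgeR adjusted p = 0.002348), Pim1 (-0.62, 0.0134), Il10 (-0.95, 0.03539) and Osm, a cytokine gene (-0.77, 0.04749). The calls of Il10 and Osm were lost without VAT adjuvant alone replicate 2 (edgeR adjusted p = 0.09642 and 0.1181). In Spl/LN 3 were lower and 0 higher (1.40% and 2.58% of genes tested): Myc (-0.83, edgeR adjusted p = 0.002351), Bcl2 (-1.38, 0.007201) and Lta (-1.85, 0.01574). The list median was -0.14 in VAT and 0.09 in Spl/LN. For the interaction 1 of the 18 was higher and 2 lower, where 1.70% and 2.02% of genes tested were. The response of the tissues differed for Ccnd2 (-0.75, edgeR adjusted p = 0.009941), Il10 (-2.37, 0.01415) and Myc (0.81, 0.03763), the last of which was lost without the same library (0.84, edgeR adjusted p = 0.1039). Leaving out that library ended no call of the partner kinases, other STAT genes or phosphatases and inhibitors, and this check of the lists was added after the data were seen. In every list, genes beyond the 2 with the smallest p in a comparison were named after their values were seen.

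**Figure D4:**
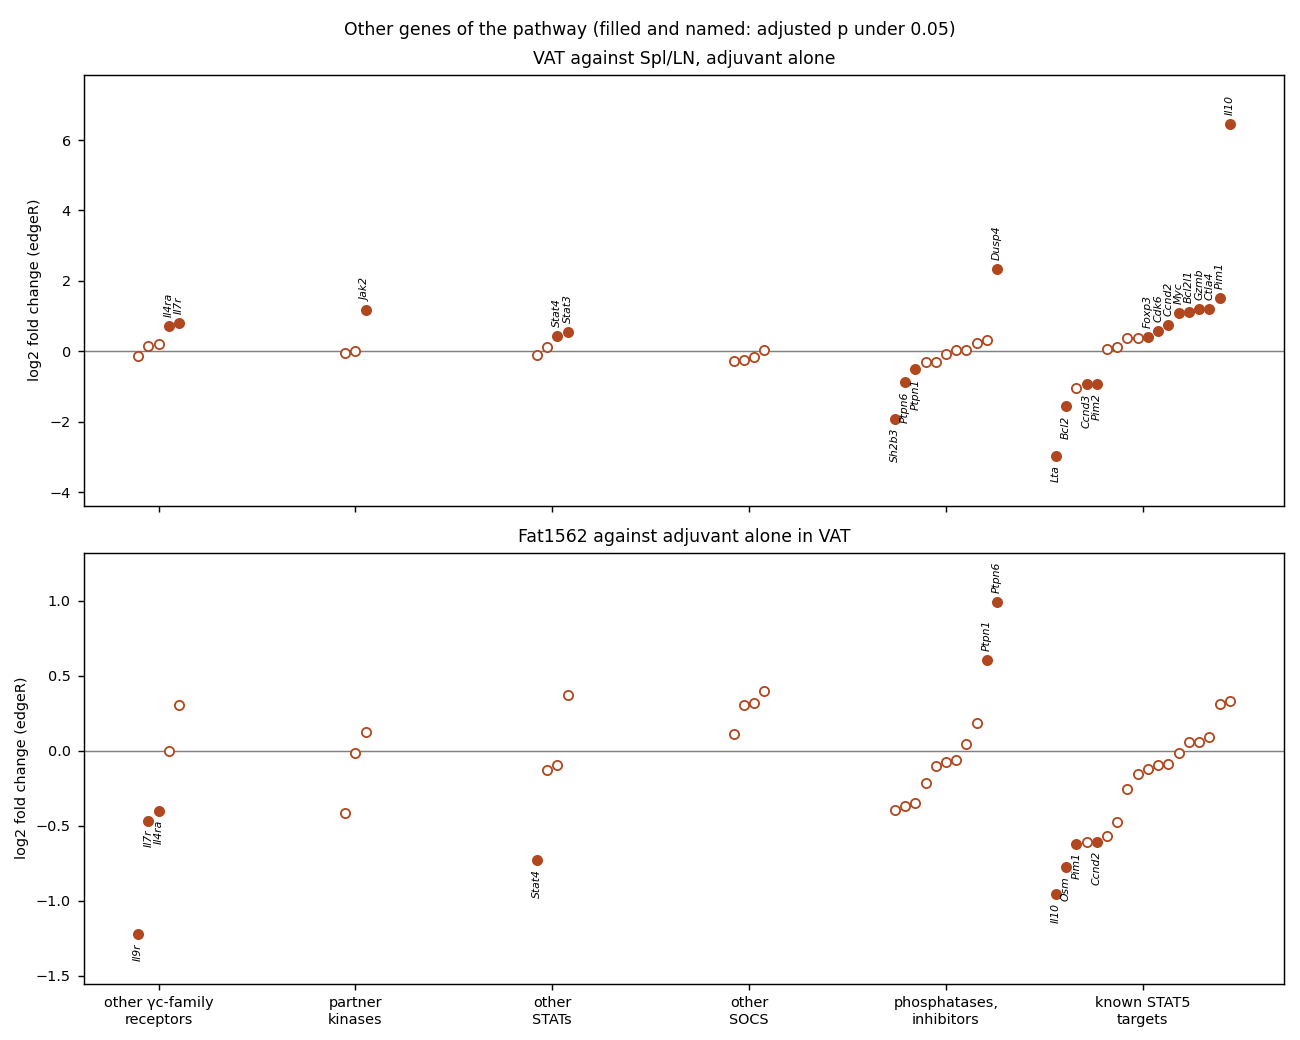
Log2 fold changes by edgeR (vertical axes, on different scales) of the tested genes of 6 lists, for VAT against Spl/LN with adjuvant alone (top) and Fat1562 against adjuvant alone in VAT (bottom). Filled and named points were called at an adjusted p under 0.05, and the 18 known STAT5 targets show 9 higher and 4 lower at the top, and 0 higher and 4 lower at the bottom.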

How the data were processed

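The authors prepared Smart-seq2 libraries with 18 PCR cycles, sequenced paired reads of 38 bases and deposited whole-number counts per gene without normalization. The submitters' processing notes name STAR 2.5.4, featureCounts and mm10, and the methods name Cuffquant for normalized reads. The annotation and use of strand are not given in the sources used here. Groups and replicate numbers came from the labels, and 0 columns stayed unmatched. The methods call the libraries biological replicates, but do not say which mouse or mice gave each, so p-values measure the spread between these libraries. No molecular identifiers are named, so depth (4490242 to 6570057 counts per library) bounds counting error only.

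The test was edgeR's quasi-likelihood test (version 4.0.16, R 4.3.3, TMM, prior count 0.125), in a single fit of the 4 groups. It covered the 12932 of 52997 genes whose scaled mean exceeded 10 in any group, with 5 comparisons including the interaction of tissue and Fat1562. P-values were adjusted by the Benjamini-Hochberg method over all genes tested. Standard errors are the log2 fold change over the root of F. Normalized counts are counts over the TMM-scaled library size, at the mean library size. Alternatives were no filter, a mean above 50, DESeq2 size factors (RLE), quantile normalization with limma 3.58.1, DESeq2 1.42.0, only the groups compared, the replicate number as a block, each library left out in turn and, for the pathway lists, VAT adjuvant alone replicate 2 left out, which was chosen after seeing the data. Where this left 1 VAT library with adjuvant alone, that library was taken to vary like the other groups. The fit was tested on simulated counts with known fold changes. Their spread followed edgeR's trend over expression and not each gene's own, so this run does not bear on single calls. Gene positions come from GENCODE vM21 (GRCm38) and windows at gene starts from RefSeq (GRCm38.p6). The members, lists and tests were chosen with earlier results of these data known. All members are named, and from each pathway list at least the 2 called genes with the smallest p per comparison. Further genes were named after their values were seen. A gene of the list of other STAT genes is not reported here and was left out of that list.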

Additional observations from a re-analysis of the deposited data

Results flagged for a closer look

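For 3 members the response to Fat1562 differed between VAT and Spl/LN by the interaction test of edgeR. The difference of log2 fold changes, VAT minus Spl/LN, was -0.68 for Il2rg (edgeR adjusted p = 0.0016), where the gene was higher after Fat1562 in 3 of 3 Spl/LN libraries and lower in 3 of 3 VAT libraries. It was -0.77 for Cish (edgeR adjusted p = 0.007169), where Cish fell by 0.98 in VAT, lower in 3 of 3 libraries. In Spl/LN Cish was lower in 3 of 3 libraries too, by 0.21, which was not called (edgeR adjusted p = 0.2793). For Socs3 the VAT minus Spl/LN difference was 0.80 (edgeR adjusted p = 0.026), with Socs3 lower in 3 of 3 Spl/LN libraries and overlapping in VAT.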

How the results depend on the processing

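Of 890 values of the 10 genes under the alternatives, 833 kept their direction and their side of the threshold. Where the library left out was of neither group compared, the log2 fold change could hardly move, so this share is no measure of stability. Of the 20 calls, 11 held in every alternative run. The number of members called for Fat1562 in Spl/LN was 2, and became 4 with no filter on low counts (where edgeR's prior degrees of freedom became infinite), 1 under quantile normalization, and 1 to 3 with each library left out, while the number called for the interaction, 3, ran from 1 to 3 with each library left out and was 4 under quantile normalization, with Il2rb added. Quantile normalization turned Il2rb (-0.32, limma adjusted p = 0.005375) and Jak3 (-0.017) between the tissues with adjuvant alone, and Il2rb for Fat1562 in Spl/LN (-0.079). With each library left out, Il2rb between the tissues with adjuvant alone ran from -0.073 to 0.11, and the interaction from -0.23 to 0.21 for Il2ra, -0.041 to 0.11 for Jak3 and -0.40 to 0.22 for Socs1, none of them called. The cause of these changes was not tested.

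Same-numbered libraries did not deviate together (correlations from -0.04 to 0.05), and with the replicate block 5, 6, 5, 2 and 3 members were called, against 5, 6, 4, 2 and 3 without it, the added call being Socs1 (-0.70, edgeR adjusted p = 0.03418), in the order tissue with adjuvant alone, tissue after Fat1562, Fat1562 in VAT, Fat1562 in Spl/LN, interaction. Over all genes, 515 were called for Fat1562 in Spl/LN and 793 with no filter or by DESeq2, and 481 for the interaction and 783 by DESeq2. With each library left out these counts ran from 190 (without Spl/LN Fat1562 replicate 2) to 500 and from 236 (without VAT adjuvant alone replicate 1) to 580. For Fat1562 in VAT, 1073 genes became 509 (without VAT adjuvant alone replicate 2) to 1397, and between the tissues 2102 became 1250 (without VAT adjuvant alone replicate 1) to 2106 with adjuvant alone, and 1938 became 1287 (without VAT Fat1562 replicate 2) to 2374 after Fat1562.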
